A study of Macaca mulatta with 17 samples.

Results

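The HOXD cluster genes were followed in uteri of female rhesus macaque fetuses. The array carried 9 of them, HOXD1, HOXD3, HOXD4, HOXD8, HOXD9, HOXD10, HOXD11, HOXD12 and HOXD13, among 16577 distinct gene names on 20217 probes. They were taken by symbol from the description of each probe. Each gene had 1 probe, printed as a pair of spots, so no choice between probes of a gene had to be made. For 8 of the 9 the description gave the symbol. The HOXD8 probe was named from the description of a predicted macaque gene similar to the Hox-D8 protein.

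RNA came from the uterus of a single fetus per array, from 1 side of the organ after a sagittal cut from fundus to cervix, so myometrium, stroma, epithelium and cervix were measured together. The 17 arrays fell into 4 groups. The GD100 groups held 5 control and 5 BPA-exposed fetuses, delivered by caesarean section on gestational day (GD) 100, whose dams ate fruit with vehicle (ethanol) or deuterated bisphenol A (BPA), an estrogenic plastic monomer, at 400 µg/kg/day from GD50. The GD165 groups held 4 control and 3 BPA-exposed fetuses, born vaginally at about GD165, whose dams received vehicle or the same dose from GD100. Stillbirths of unknown cause occurred in both GD165 groups, and the study left the uteri of stillborn fetuses off the arrays. The exposed groups thus differed in exposure window as well as in age, and age differed together with the mode of delivery. All values below are log2 signals after each array was brought to a common 75th percentile, and 1 unit is a doubling. Levels of different genes come from different probes and were not compared with each other. A difference was called when the adjusted p of limma, a linear model with moderated variances, was under 0.01 over all probes. The study's methods set the same threshold on another test, an error-weighted analysis of variance, so calls here are not those of the study.

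HOX genes encode homeodomain transcription factors that give cells their position along the body axis. Within a cluster they are ordered: genes at the 3′ end (low numbers) act earlier and nearer the head, and genes at the 5′ end (high numbers) later and nearer the tail. In the female reproductive tract the paralogs of groups 9 to 13 pattern the Müllerian duct from oviduct through uterus to cervix and vagina, and the HOXA members are the best studied there. HOXD genes are best known from limb buds and from the tail end of the gut and urogenital tract, where HOXD13 is needed.

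In a current macaque assembly (T2T-MMU8v2.0) the 9 genes stand on chromosome 12 in the order HOXD13, HOXD12, HOXD11, HOXD10, HOXD9, HOXD8, HOXD4, HOXD3, HOXD1, between EVX2 and LNPK on the HOXD13 side and MTX2 on the HOXD1 side. The coordinates that the array files give for the probes follow the same order over 95.8 kb from HOXD13 to HOXD1. Their genome build could not be settled, since they lie on a chromosome 2 and not on chromosome 12. Distances and no coordinates are therefore given, and these distances may not be those of the macaque genome. Neighbouring probes were 4.96 kb (HOXD9 to HOXD10) to 21.3 kb (HOXD4 to HOXD8) apart. Whether a probe lies in coding sequence or in a UTR is not given in the sources used here. The annotated HOXD11 locus reaches into HOXD10, so a long HOXD11 transcript could hold the HOXD10 probe.

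Because HOX genes resemble each other, the probe sequences were compared with each other. The letters below are 30 of the 60 bases of the probes of 8 genes, from the array files, 5′ to 3′, and the capitals mark the longest stretch that the probe shares with a probe of any other HOX gene on the array.
HOXD1: taaaaacGATTTGCttgcagtgaccttgta
HOXD3: gggcCACATTTTACctccttagtccccttt
HOXD4: ctctaagtatATTATATGGcaggagctact
HOXD8: cttcctaatgattagcacTTAATAATtgaa
HOXD10: tttgggtcTTAACTTattggaactgtagag
HOXD11: gtgaatgcagaTTATTTAAactttgggaaa
HOXD12: atcaaccggcaGAAACGCAaggaattgtcc
HOXD13: aaTGTTCTGTTtctccctctaggccagtat
Among these 8 probes the longest shared stretch was 10 bases, between HOXD3 and HOXB3. It was 7 to 9 bases for the other 7. Only the 39 HOX probes were compared with each other in this way, not whole transcripts. What else a probe can bind was therefore not examined, and the stretch that unrelated probes share was not computed.

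Both spots of 8 of the 9 probes were well above background on all 17 arrays, and no spot was saturated. The deposited signal of the HOXD10 probe was 9579 to 40037 over the arrays and that of the HOXD13 probe 32.1 to 289. HOXD12 was the exception. It was not well above background on 14 of 17 arrays and never on both of its spots. The 3 arrays with 1 spot above background were GD165 control 1 (log2 signal 4.65), GD165 control 3 (2.71) and GD100 BPA 2 (2.69). All other arrays read between 1.23 and 2.11, a range in which the order of values carries no information.

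At GD165, BPA-exposed uteri had higher mean levels of all 7 detected genes from HOXD1 to HOXD11 and a lower mean level of HOXD13 than controls of that age. None of these differences was called: 0 of 9 genes passed, and over all 20217 probes 0% (no probe) passed. Before adjustment 4 of 9 genes had p under 0.05 (HOXD3, HOXD8, HOXD9 and HOXD13), against 8.61% of all probes. The groups did not overlap for 2 of 9 (HOXD9 higher, HOXD13 lower), against 7.31% of all probes. The median difference over the 8 detected genes was 0.41, and over all probes -0.02. The genes rose and fell together between animals, as described further on, so these counts are not independent of each other.

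HOXD13, the most 5′ gene and the one that acts nearest the tail, showed the largest difference at GD165. The exposed arrays read 6.27, 6.07 and 4.91 (mean 5.75 ± 0.73 SD, n = 3). The controls read 7.06, 6.36, 8.10 and 7.62 (7.29 ± 0.75, n = 4). Each exposed uterus was below each control, although the highest exposed and the lowest control were close (6.27 and 6.36). The mean was 2.90-fold lower in exposed uteri, a log2 difference of -1.54 (95% CI -2.48 to -0.59), with unadjusted p = 0.0034 and adjusted p = 0.41 by limma. Between the exposed arrays of slide 5 and the control there, the difference was -0.89, and the model with slide as a fixed block gave -1.48 (adjusted p = 0.585). Without GD165 BPA replicate 5 the difference was -1.12, and with normexp background correction it was -0.98 (adjusted p = 0.245).

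HOXD12 lies next to HOXD13 and could not be read in the same way. Its 3 exposed arrays at GD165 (1.23, 1.67 and 2.06) were all below background, and so were 2 of the 4 controls (1.65 and 1.52). The other controls read 4.65 and 2.71. No fold is given, because the mean of the controls did not exceed the floor of the exposed arrays.

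HOXD3, a group 3 gene of the 3′ part, was the most different of the genes with a higher mean. The exposed arrays at GD165 read 10.40, 9.84 and 10.47 (10.24 ± 0.35, n = 3), and the controls 9.42, 8.84, 9.11 and 9.94 (9.33 ± 0.47, n = 4). GD165 control 6 was above the lowest exposed array, so the groups overlapped. The mean was 1.88-fold higher, a log2 difference of 0.91 (95% CI 0.40 to 1.42), with unadjusted p = 0.0016 and adjusted p = 0.39 by limma. On slide 5 the difference was 0.70.

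HOXD9, of the first paralog group expressed along the Müllerian duct, varied least between animals. Its exposed arrays at GD165 read 13.20, 12.98 and 12.92 (13.03 ± 0.15, n = 3), all above the controls at 12.64, 12.52, 12.69 and 12.77 (12.65 ± 0.10, n = 4). The difference was 0.38 (95% CI 0.03 to 0.73; adjusted p = 0.54). HOXD8, its neighbour on the 3′ side, differed by 0.44 (95% CI 0.06 to 0.82; adjusted p = 0.53). On slide 5, with 2 exposed arrays and 1 control, HOXD8 differed by 0.02, and with slide as a fixed block by 0.49 (adjusted p = 0.67).

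The other 4 detected genes had intervals that included 0. HOXD4 differed by 0.61 (95% CI 0.00 to 1.23), with exposed arrays at 12.66, 11.23 and 12.20 spread over a wider range than the controls, 11.06 to 11.61. The HOXD4 difference was 0.30 without GD165 BPA 3 and 1.01 without GD165 BPA 4. HOXD1, at the 3′ end of the cluster, differed by 0.58 (-0.39 to 1.56), and by 0.38 without GD165 control 3. HOXD10 differed by 0.38 (-0.32 to 1.08) and HOXD11 by 0.30 (-0.30 to 0.89). The exposed animals were not alike: GD165 BPA 3 and GD165 BPA 5 were above the control mean for 7 of 8 detected genes, and GD165 BPA 4 for 4 of 8. HOXD13 was below it in all 3.

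**Figure D1:**
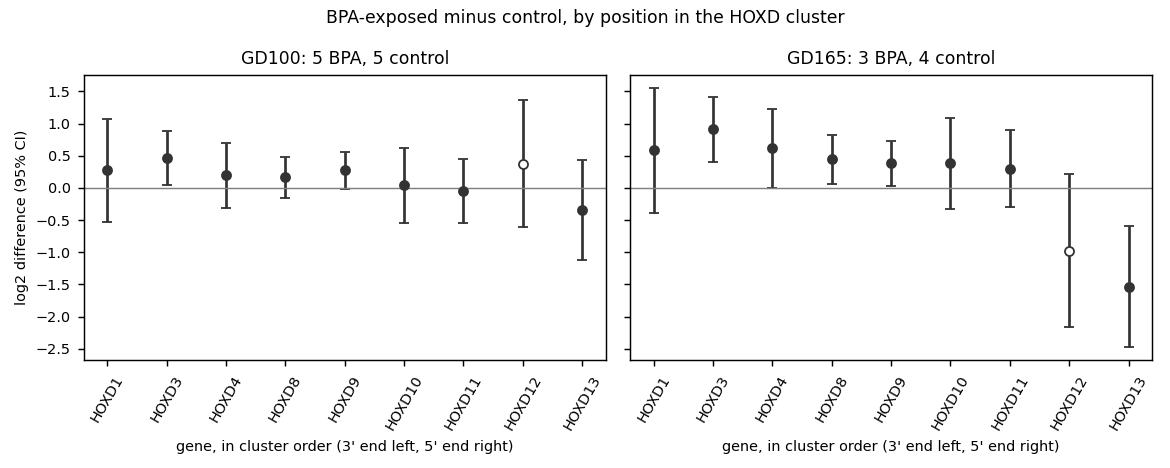
Log2 difference between BPA-exposed and control uteri at GD100 (left) and GD165 (right) with its 95% CI from limma, for the genes in cluster order from HOXD1 to HOXD13. At GD165 the differences of HOXD1 to HOXD11 lie between 0.30 and 0.91 and that of HOXD13 at -1.54; no difference was called at either age, and HOXD12 (open point) was mostly not above background, so its value is no estimate.

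At GD100 the BPA-exposed and control uteri differed by at most 0.46 in the detected genes. Of the 9 genes 0 were called, as were 0% of all probes, and the adjusted p was 0.9999 for each. HOXD3 alone had an unadjusted p under 0.05, which 3.79% of all probes had. The groups overlapped for all 9 genes, and they did not for 0.782% of all probes. The exposed arrays of HOXD3 read 9.81 to 10.40 with a median of 10.09 and the controls 9.43 to 9.96 with a median of 9.69, a difference of 0.46 (95% CI 0.04 to 0.88). Within slides 1, 2 and 3 it was 0.51, 0.22 and 0.44. HOXD9 differed by 0.27 (-0.01 to 0.56) and HOXD13 by -0.35 (-1.13 to 0.43). The remaining 5 detected genes differed by -0.05 (HOXD11) to 0.27 (HOXD1). For HOXD1 this rested on 1 animal: GD100 BPA 1 read 9.35 where the other 4 exposed arrays read 7.13 to 7.98, and without it the difference was -0.08.

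Whether the effect of BPA differed between the ages was tested as the difference of the differences. Of the 9 genes 0 were called, of all probes 0%, and 0 of 9 had an unadjusted p under 0.05, against 7.83% of all probes. The value was -1.19 for HOXD13 (95% CI -2.41 to 0.04; adjusted p = 0.64), and for the 7 other detected genes it was 0.11 (HOXD9) to 0.45 (HOXD3).

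Age was compared in controls and in exposed fetuses separately. In controls 0 of 9 HOXD genes were called between GD165 and GD100, while 11.5% of all probes were. The median difference over the 8 detected genes was -0.15, with a range from -0.53 (HOXD4, 95% CI -1.07 to 0.01) to 0.57 (HOXD1, -0.29 to 1.42). Of the detected genes 0 had an unadjusted p under 0.05 and of all 9 only the dim HOXD12, against 33.1% of all probes. No HOXD gene had groups without overlap, against 19.4% of all probes. HOXD4 read 11.49 to 12.33 in GD100 controls and 11.06 to 11.61 in GD165 controls, so the upper late arrays lay within the early range. No fold is given for HOXD12, because only 2 of its 4 late controls and 0 of its 5 early controls were above background. Its measured means were 2.63 in late and 1.58 in early controls (adjusted p = 0.15 by limma). The measured HOXD12 difference rested on GD165 control 1, without which it was 0.37 in place of 1.05.

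In BPA-exposed fetuses 0 of 9 were also called between GD165 and GD100, against 9.68% of all probes. An unadjusted p under 0.05 was found for 2 of 9, HOXD9 and HOXD13, and for 34.5% of all probes. HOXD13 was 2.78-fold lower at GD165, a log2 difference of -1.47 (95% CI -2.38 to -0.57; adjusted p = 0.023), the smallest adjusted p of any member in any comparison and the only one under 0.05. Its GD100 exposed arrays read 7.18, 7.83, 7.31, 6.53 and 7.27 (7.22 ± 0.46, n = 5), and the GD165 exposed arrays, given above, lay below all of them. Groups without overlap were found for this 1 gene of 9, against 27.2% of all probes. Only slide 2 held exposed arrays of both ages, and HOXD13 differed there by -2.36. With normexp background correction the HOXD13 difference was -0.89 (adjusted p = 0.0227), and without GD165 BPA replicate 5 it was -1.06 (adjusted p = 0.121). HOXD1 was higher by 0.88 (-0.05 to 1.81), HOXD10 by 0.60 (-0.07 to 1.28) and HOXD9 by 0.36 (0.03 to 0.69). This comparison and that of exposed with control uteri at GD165 share the 3 GD165 exposed arrays.

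**Figure D2:**
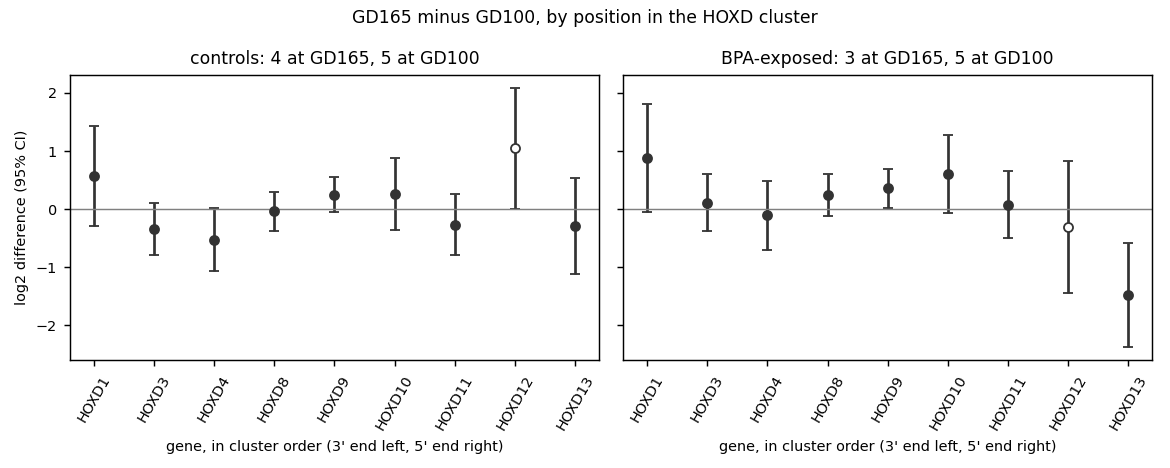
Log2 difference between GD165 and GD100 in controls (left) and BPA-exposed fetuses (right) with its 95% CI from limma, in cluster order. In controls the intervals of all 8 detected genes include 0; in exposed fetuses HOXD13 lies at -1.47 and HOXD9 at 0.36 with intervals that do not. HOXD12 (open point) is no estimate.

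Ordered by group mean, HOXD13 was highest in GD100 controls (7.57 ± 0.58), then in GD165 controls (7.29 ± 0.75) and GD100 exposed uteri (7.22 ± 0.46), 3 neighbours closer than their SDs, and lowest in GD165 exposed uteri. HOXD1, HOXD8, HOXD9 and HOXD10 had their highest mean in GD165 exposed uteri, and so did HOXD3 and HOXD11, while HOXD4 was highest in GD100 exposed uteri (12.14 ± 0.33). For HOXD11 the 4 means lay between 10.86 and 11.16, within the SD of GD100 controls (0.50). For HOXD3 the order was GD165 exposed (10.24), GD100 exposed (10.12), GD100 control (9.66) and GD165 control (9.33), and the upper pair differed by less than its SDs.

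The threshold rests on the spread between animals. A z test that used only the error that the scanner software writes for each spot, and so asked whether these particular arrays differ, called 8 of 9 HOXD genes for BPA at GD165 (7 higher, HOXD13 lower) where it called 23.9% of all probes. It called 4 of 9 for BPA at GD100 (16.6% of all probes), 6 of 9 for the difference of the effects (23.1%), 7 of 9 for age in controls (47.8%) and 5 of 9 for age in exposed fetuses (50.8%). The pooled SD between animals of a group was 0.22 for HOXD9, 0.24 for HOXD8, 0.33 for HOXD3, 0.62 for HOXD13 and 0.64 for HOXD1.

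Between animals of the same group, most HOXD genes varied together, while HOXD13 was not in any of the pairs that passed the test. After each gene was centred on its group means, Pearson's r over the 17 arrays had a median of 0.50 over the 28 pairs of the 8 detected genes, and 12 pairs had an adjusted p under 0.05 (100000 permutations within groups, two-sided, adjusted over the 28 pairs). The 3 highest values were those of neighbouring genes: HOXD1 with HOXD3 r = 0.76 (rho = 0.82, permutation p = 0.00049, adjusted 0.0069), HOXD3 with HOXD4 r = 0.73 (rho = 0.84, permutation p = 0.00028, adjusted 0.0069), and HOXD10 with HOXD11 r = 0.75 (rho = 0.75, permutation p = 0.0029, adjusted 0.016). Without the 2 arrays farthest from the median of the first gene these were 0.72, 0.78 and 0.65. Leaving out HOXD13, the median r was 0.71 over the 6 neighbouring pairs (0.47 to 0.76) and 0.47 over the 6 pairs that stood 4 or more places apart (0.24 to 0.69), so the ranges overlapped. HOXD4 and HOXD11, for example, stand 4 places apart and gave 0.69, and the neighbours HOXD8 and HOXD9 gave 0.47. HOXD13 gave r between -0.14 (HOXD8) and 0.13 (HOXD11) over all arrays, and between -0.41 (HOXD8) and 0.37 (HOXD9) without the 2 arrays. All genes were read on the same arrays, which these values therefore share. How many pairs of other genes would pass was not computed, so the 12 pairs are not shown to be particular to the cluster. For each detected HOXD gene the highest value was with a gene outside the HOX clusters, as described below.

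**Figure D3:**
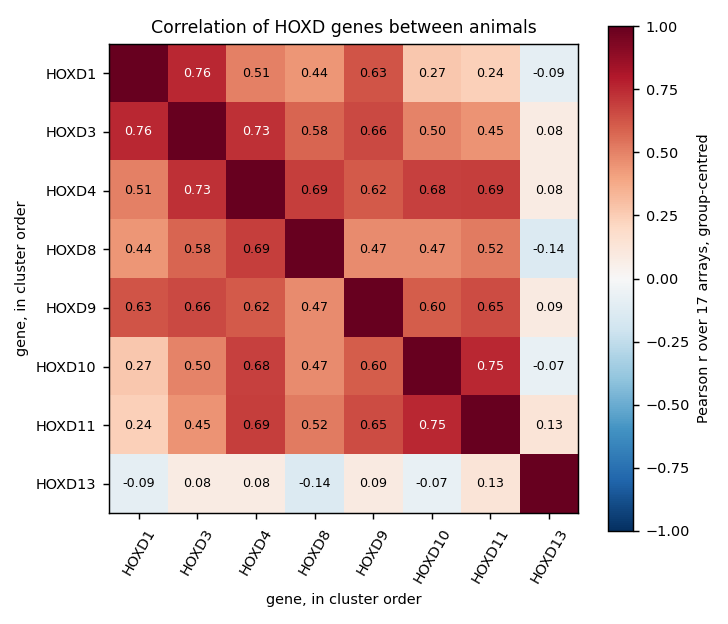
Pearson's r between the 8 detected HOXD genes over 17 arrays, each gene centred on its group means, in cluster order on both axes; colour runs from -1 (blue) to 1 (red). The values among HOXD1 to HOXD11 run from 0.24 to 0.76, and those with HOXD13 from -0.14 to 0.13.

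The genes most like each member over these 17 arrays, out of 14024 others that were well above background throughout, were mostly not HOX genes. IRX3 was nearest to HOXD1 (r = 0.90), VDR, the vitamin D receptor, to HOXD3 (0.88), SLC35E2 to HOXD4 (0.87), ARHGEF7 to HOXD8 (0.87), PAPLN to HOXD9 (0.85), MDS010 to HOXD10 (0.84), PRIMA1 to HOXD11 (0.90) and ZBTB3 to HOXD13 (0.80). FAM26A was among the 3 nearest of both HOXD10 (0.80) and HOXD11 (0.89). Of HOX genes, HOXA7 was ranked 3 for HOXD9 (0.82), HOXC8 was ranked 9 for HOXD1 (0.84), HOXD11 was ranked 9 for HOXD10 and HOXD10 was ranked 7 for HOXD11. The nearest HOX gene was ranked 58 of 14024 for HOXD3 (HOXD1, 0.76), 34 for HOXD4 (HOXD3, 0.73) and 89 for HOXD8 (HOXD4, 0.69). HOX genes are few among the 14024, so first places held by other genes do not show that members differ from their neighbours. For HOXD13 the nearest HOX gene was HOXB9 (0.43). These are descriptions of 17 arrays, with the largest of many values picked, and carry no test.

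The other HOX clusters, 30 genes on the array, show how far the HOXD pattern was shared. For BPA at GD165, 0 of 30 were called, as were 0% of all probes. An unadjusted p under 0.05 by limma was found for 7 of 30, against 8.61% of all probes. These were 4 of 11 HOXA, 2 of 10 HOXB and 1 of 9 HOXC genes. Of the 26 genes that were well above background on all GD165 arrays, 14 were higher and 12 lower, with a median of 0.03. The groups did not overlap for 6 of these 26, against 7.31% of all probes. Of the 7 detected HOXC genes 4 were higher in exposed uteri, HOXC9 by 1.45, HOXC10 by 1.18, HOXC6 by 0.92 and HOXC8 by 0.75 (adjusted p from 0.53 to 0.65). The groups did not overlap for HOXC8, HOXC9 and HOXC10. The group 13 gene HOXA13 stood at -2.48 (SE 0.66, adjusted p = 0.39) beside HOXD13. HOXA13 in GD165 exposed uteri read 8.02, 10.10 and 6.77, and in controls 11.03, 11.39, 10.92 and 9.78, so these groups overlapped, and GD165 BPA 5 was lowest for HOXA13 as it was for HOXD13. HOXA9 and HOXA10, which pattern the oviduct and uterus, were higher in exposed uteri by 0.41 and 0.23 with groups that did not overlap (adjusted p = 0.41 and 0.49).

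**Figure D4:**
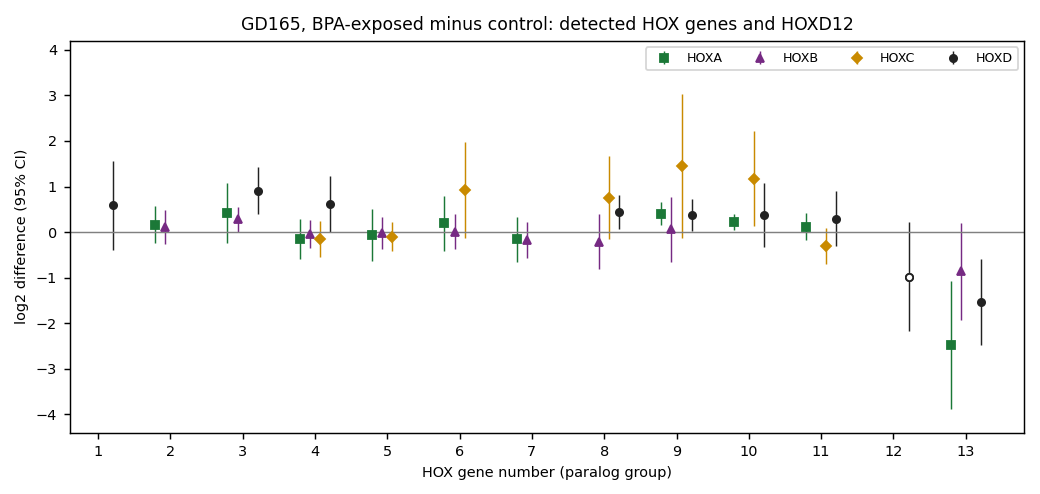
Log2 difference between BPA-exposed and control uteri at GD165 with its 95% CI from limma for 35 HOX genes, the 26 outside HOXD that were well above background on all GD165 arrays and the 9 HOXD genes, by paralog group; squares, triangles, diamonds and circles are the HOXA, HOXB, HOXC and HOXD clusters, and the open circle is HOXD12, which is no estimate. HOXA13 (-2.48) and HOXD13 (-1.54) are the lowest values, the 7 HOXD genes of groups 1 to 11 lie above 0, and no gene was called.

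With age, some genes of the other HOX clusters were called; whether their share differs from that of the HOXD genes was not tested. In controls 7 of 30 passed, against 11.5% of all probes. All 5 that rose from GD100 to GD165 belonged to the HOXB cluster, of which 10 genes were measured, with HOXB8 (1.03) and HOXB6 (0.94) as examples. HOXA9 and HOXA10 fell, by 0.42 on the log2 scale each. In exposed fetuses 5 of 30 passed, against 9.68% of all probes, with 4 HOXB genes higher and HOXA13 lower (log2 difference -2.72, adjusted p = 0.0074).

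Genes around and above the cluster were examined as lists. Of the genes beside the cluster, 9 of 10 were on the array; LNPK, which borders the 5′ side, fell with age in controls (-0.69) and in exposed fetuses (-0.52), NFE2L2 rose (0.78 and 0.69), and 0 of 9 were called for BPA at either age. Of 9 HOX cofactors, PBX and MEIS family proteins that bind DNA with HOX proteins, 3 fell with age in controls: PBX4 (-1.05), MEIS1 (-0.55) and PBX3 (-0.48). In exposed fetuses only PBX4 was called (-0.99), and none was called for BPA. Of 11 chromatin regulators of HOX genes, EZH2, the main methyltransferase of the Polycomb complex that silences HOX clusters, fell with age in controls (-1.06) and in exposed fetuses (-0.89), and its relative EZH1 rose (0.48 and 0.58); 0 of 11 were called for BPA. Of 10 genes known to respond to HOX proteins in other tissues, the receptor EPHA7 fell with age in controls (-0.99), and the growth factor FGF10 fell in exposed fetuses (-2.43). FGF10 was also lower in exposed than in control uteri at GD165 by -2.02 with groups that did not overlap, as for 7.31% of all probes. It was not called (adjusted p = 0.12 by limma). For age in controls 11.5% of all probes were called, against 2 of 9 genes beside the cluster and 3 of 9 cofactors. Of the chromatin regulators 2 of 11 were called, and of the HOX-responsive genes 1 of 10. In exposed fetuses 9.68% of all probes were called, and 2 of 9, 1 of 9, 2 of 11 and 1 of 10 in these lists. Whether any of these shares differs from that of all probes was not tested.

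Markers of other tissues were examined alongside. The squamous epithelium list (cervix and vagina; 12 of 13 markers on the array, 8 of them well above background on all arrays, none without signal throughout) had 0 markers called for BPA at GD165, 11 of 12 lower and a median of -1.34. Of all probes 0% were called there. An unadjusted p under 0.05 by limma was found for 6 of the 12 markers, against 8.61% of all probes. The mean of its log2 levels, each marker relative to its own mean, ranged from -0.49 to 3.24 in GD165 controls, from -0.64 to -0.11 in GD165 exposed uteri, and from -0.46 to 0.09 in both GD100 groups. The high value was that of GD165 control 6, in which HOXD13 read 7.62. The median of these list means was 0.38 in GD165 controls and -0.64 in GD165 exposed uteri. The skeletal muscle list (13 of 13 on the array) rose with age in controls, with 6 of 13 called and all higher, against 11.5% of all probes called. Its mean level ranged from 0.33 to 4.26 in GD165 controls and from -0.23 to 3.61 in GD165 exposed uteri. Other lists had 0 markers called for BPA at GD165 as well: the stroma and Müllerian list was higher for 8 of 9 (median 0.23; it holds HOXA10 and HOXA11), simple epithelium for 0 of 5 (-0.44), uterine smooth muscle for 0 of 8 (-0.18), the erythroid list for 1 of 7 (-0.65), leukocytes for 7 of 9 (0.17), ovary and oviduct for 4 of 6 (0.12) and bladder epithelium for 1 of 4 (-0.13). The mean levels of the first 4 of these lists in GD165 controls and exposed uteri ranged from -0.28 to 0.21 and 0.16 to 0.40 (stroma), 0.20 to 0.61 and -0.39 to 0.22 (simple epithelium), 0.09 to 0.64 and -0.05 to 0.58 (smooth muscle), and -0.28 to 0.85 and -1.19 to 0.34 (erythroid). The part of any of these tissues in the HOXD differences was not tested. In whole uterus, fewer cells of a type and less RNA per cell cannot be told apart.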

How the data were processed

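Per the labels, RNA of 1 uterus per array was hybridised to Agilent rhesus arrays in 1 colour. The authors extracted intensities with Feature Extraction 9.5, which corrects background and writes a spot error; the deposited signals were not scaled between arrays, and the deposited table held the same values (711467 of 711467). Here log2 signals of the non-outlier spots of a probe were averaged and each array's 75th percentile was subtracted (mean 12.62 added back). limma 3.58.1 (R 4.3.3) was fitted to 20217 probes in 4 groups over 17 arrays, two-sided, with Benjamini-Hochberg adjustment; the error-weighted analysis of variance of the methods was not repeated, and error weights were an alternative. The fit was tested on simulated data. Of spots, 83.8 to 89.0% were well above background, and the number of arrays limits the precision. All 9 members were named; of other lists, at most 4 called genes or the nearest to the threshold. HOXA9, HOXA10 and 4 HOXC genes were named beyond this rule, after their values were seen. The sequence of 1 probe is not reported here. Members and lists were chosen with earlier results of these data known. Alternatives covered background correction, scaling, filters, spot error, moderation, slide, replicate number and left-out animals; differences within slides were added after seeing the data. Replicate numbers did not pair animals (19 pairs, r from -0.17 to 0.16), and p-values measure the spread between single fetuses.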

Additional observations from a re-analysis of the deposited data

Results flagged for a closer look

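In 27 groups of 4 or 5 arrays of the 9 genes, 3 single arrays stood apart from the rest of their group by Dixon's criterion, which chance meets in about 5% of groups. HOXD10 read 14.95 in GD100 control 3, where the other 4 controls read 13.85 to 14.03. HOXD11 read 11.99 in the same animal, with the other controls at 10.77 to 11.07. HOXD11 read 11.28 in GD165 control 5, with the other controls at 10.68 to 10.77. Without GD100 control 3, the age difference of HOXD11 in controls was -0.05 in place of -0.27, and that of HOXD10 was 0.46 in place of 0.26.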

How the results depend on the processing

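No HOXD gene was called in any comparison under background correction by normexp, other scalings, the filter on dim probes (which leaves out HOXD12), kept outlier spots, fits of the compared groups alone, other moderation, weights from the spot error, slide or replicate blocks, or without any single animal (0 to 0 in each comparison). The exceptions were the z test with scanner error (7, 5, 4, 8 and 6 genes for age in controls, age in exposed fetuses, BPA at GD100, BPA at GD165 and the difference) and a threshold of 0.05, which called 1 gene, HOXD13, for age in exposed fetuses. Leaving the z test aside, HOXD13 for BPA at GD165 had an adjusted p of 0.245 to 0.723 and a log2 difference of -1.57 to -0.98 over the other settings, and 0.279 to 0.760 and -1.85 to -1.12 without single animals. For age in exposed fetuses its adjusted p was 0.019 to 0.065, and 0.018 to 0.121 without single animals.

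Directions turned for 9 of the 45 gene and comparison pairs. Their differences in the main fit ran from -0.29 (HOXD13, age in controls) to 0.27 (HOXD1, BPA at GD100). For age in controls, HOXD10 was -0.10 with slide as a fixed block, HOXD8 ranged from -0.130 to 0.0423 and HOXD13 from -0.557 to 0.0235 without single animals (HOXD13 positive without GD165 control 3). For age in exposed fetuses, HOXD4 was 0.0750 without scaling, 0.0178 with slide as a fixed block and 0.0099 with the replicate block, and without single animals HOXD4 ranged from -0.42 to 0.29, HOXD3 from -0.0035 to 0.314 and HOXD11 from -0.0127 to 0.230. For BPA at GD100, HOXD10 was -0.0020 without scaling, -0.266 with slide fixed and -0.0212 with slide random, and without single animals HOXD10 ranged from -0.10 to 0.30, HOXD11 from -0.20 to 0.16 and HOXD1 from -0.0838 to 0.471. The cause was not tested. The replicate block changed no call; HOXD3 for BPA at GD165 was 1.31 (adjusted p = 0.21) with it. Correlated pairs numbered 12, 8 with median scaling and 9 with quantile normalization. A mean over probes of a gene was not run, since each gene has 1 probe. With 3 exposed arrays at GD165 the intervals were wide, and a difference that was not called is not shown to be absent.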
